A study of Mus musculus with 6 samples.

Results

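The genes described here are 35 genes of the cell cycle and DNA replication, taken by name from the 55487 genes of the count table: 8 cyclins, 4 cyclin-dependent kinases (CDKs), 8 mitotic kinases and mitotic factors, 6 subunits of the MCM helicase with the sliding clamp gene Pcna, 3 genes of nucleotide synthesis and 5 regulators. The genes were listed by name, and no threshold on their expression was applied. All 35 names were found in the table.

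Livers of 6 wild-type mice were profiled by RNA-seq, with 1 library per mouse. The mice ate normal chow, and tissue was collected when they were 17 weeks old. The control group of 3 mice received GalNAc-siNC, the control conjugate, and the other group of 3 mice received GalNAc-siRnf10, an siRNA against Rnf10, which encodes an E3 ubiquitin ligase. Both agents were given under the skin, and the study's text names the second conjugate GalNAc-siRnf10-2. GalNAc is a sugar ligand of the asialoglycoprotein receptor, which directs the siRNA to hepatocytes, whereas RNA was taken from whole liver, so every other cell type of the organ contributed to the counts. The labels name no difference of batch between the groups, and such a difference was not tested.

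Total counts lay between 26854377 and 33058645 per library. The mean normalized count of Rnf10 was 4134 ± 345 (SD, n = 3) with GalNAc-siNC and 1778 ± 41.7 with GalNAc-siRnf10 (log2 fold change -1.22). The 8 hepatocyte markers summed to between 1699939 and 1804344 normalized counts in the GalNAc-siNC mice and to between 2513949 and 2597693 in the GalNAc-siRnf10 mice, so the livers carried the markers of their main cell type in both groups. The library of GalNAc-siNC mouse 1 stood apart from its group: over genes, the chi-square per gene was 30.7 and 30.0 between this mouse and the other GalNAc-siNC mice, against 10.3 between those others and between 4.70 and 5.37 within the GalNAc-siRnf10 group. For the genes listed by name above, values without this mouse are therefore given beside the calls that it changes. For further pathway genes, the fits that kept a call are counted without naming the mouse.

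A dividing cell first activates CDK4 or CDK6 with D-type cyclins, which inactivate the retinoblastoma protein and release E2F transcription factors. Cyclin E and cyclin A with CDK2 then drive DNA replication, which needs the MCM helicase, the clamp PCNA and a supply of deoxynucleotides, and cyclin B with CDK1 drives mitosis. Hepatocytes of the adult liver rest outside the cycle and re-enter it after tissue loss, so genes of replication and mitosis are known for low levels in this tissue, while several regulators of the first phase are also expressed in resting cells.

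The levels of the 35 genes spanned a wide range. On the length-corrected scale (normalized counts per kilobase of gene model and per 1000000 counts), mean levels over the 6 mice ran from 0.048 for Bub1, a kinase of the spindle checkpoint, to 10.4 for Myc, which encodes a growth-promoting transcription factor. After Myc came Pcna at 8.58, Cdk4 at 7.65, the CDK inhibitor gene Cdkn1b at 5.25 and the cyclin D1 gene Ccnd1 at 4.05. In every GalNAc-siNC mouse Myc had the highest level of the 35 genes, between 13.8 and 16.6. In every GalNAc-siRnf10 mouse it lay below both Pcna and Cdk4, between 5.09 and 6.03. The lowest levels belonged to mitotic genes: Bub1, Foxm1 at 0.061, the cyclin B1 gene Ccnb1 at 0.061, the mitotic kinase gene Plk1 at 0.13 and the topoisomerase gene Top2a at 0.13. Bub1 had between 1 and 12 raw counts per library, Ccnb1 between 3 and 12 and Plk1 between 4 and 11, and these 3 genes did not pass the filter on low counts. The remaining 32 genes were tested.

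**Figure D1:**
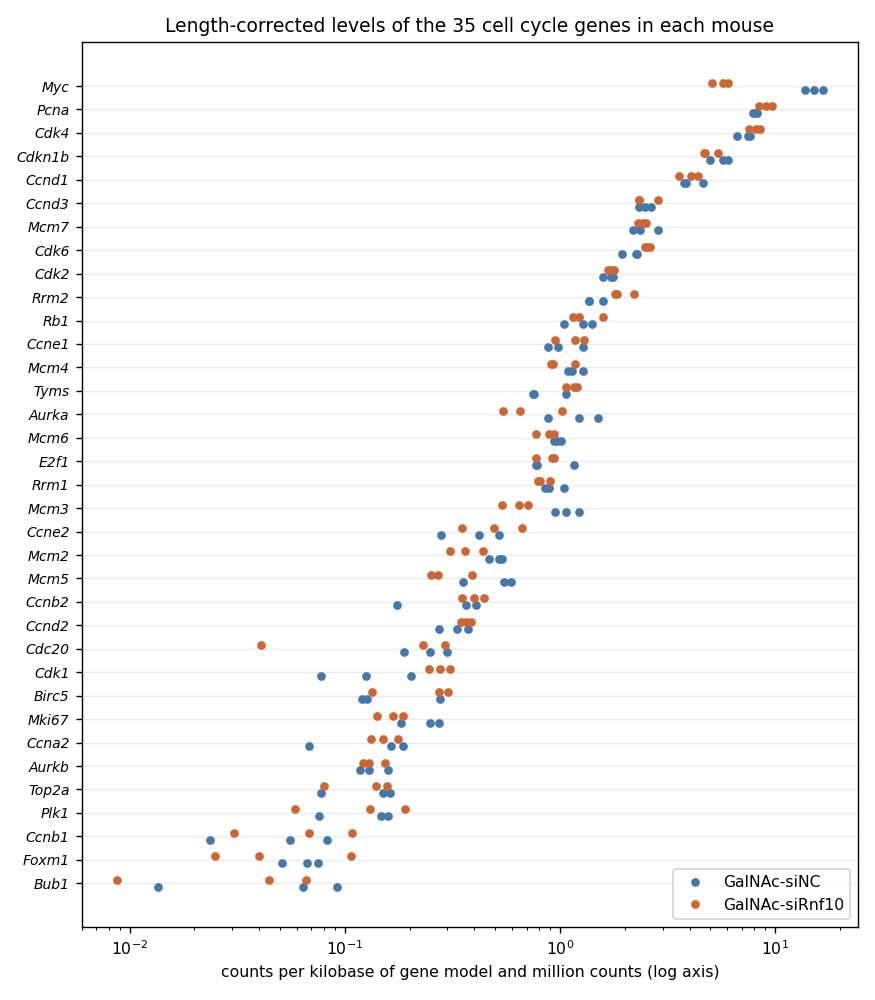
Length-corrected level of each of the 35 cell cycle genes in each mouse, on a log axis, with genes ordered by their mean over the 6 mice. Each point is 1 mouse, blue for GalNAc-siNC and orange for GalNAc-siRnf10. The blue points of Myc lie to the right of every other gene, its orange points lie between 5.09 and 6.03, and the mitotic genes fill the lower end.

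The comparison of the groups asked which of these genes changed in liver when Rnf10 was silenced. Of the 32 tested genes, Myc and Mcm3 changed, both lower with GalNAc-siRnf10, and no gene was called higher (edgeR quasi-likelihood test, Benjamini-Hochberg adjusted p under 0.05 over all 14046 tested genes). That is 6.25% of the tested cell cycle genes, whereas 14.0% of all tested genes were called, 7.28% lower and 6.71% higher. The share varied with depth. Among genes with a mean normalized count under 100, 1 of 17 cell cycle genes was called and the background was 4.91%. Among genes with at least 100, 1 of 15 was called and the background was 18.0%. Fold changes of the 32 genes were above 0 for 15 and below 0 for 17, with a median log2 fold change of -0.011 against 0.0022 over all tested genes. Without an adjustment, 10 of the 32 genes had p under 0.05 in the edgeR test, 6 lower and 4 higher, which is 31.2% against 26.7% of all tested genes. The 2 groups were fully separated in normalized counts for 8 of the 32 genes, which is 25.0% against 32.8% of all tested genes. Of these 8, Myc, Mcm3 and Mcm2 were lower and Cdk1, Cdk6, Pcna, Rrm2 and Tyms were higher in the GalNAc-siRnf10 mice. For each of the 8 the exact two-sided permutation test gave p = 0.1, the smallest that 3 mice against 3 allow. Full separation always gives this value, so the test adds nothing to the separation itself.

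**Figure D2:**
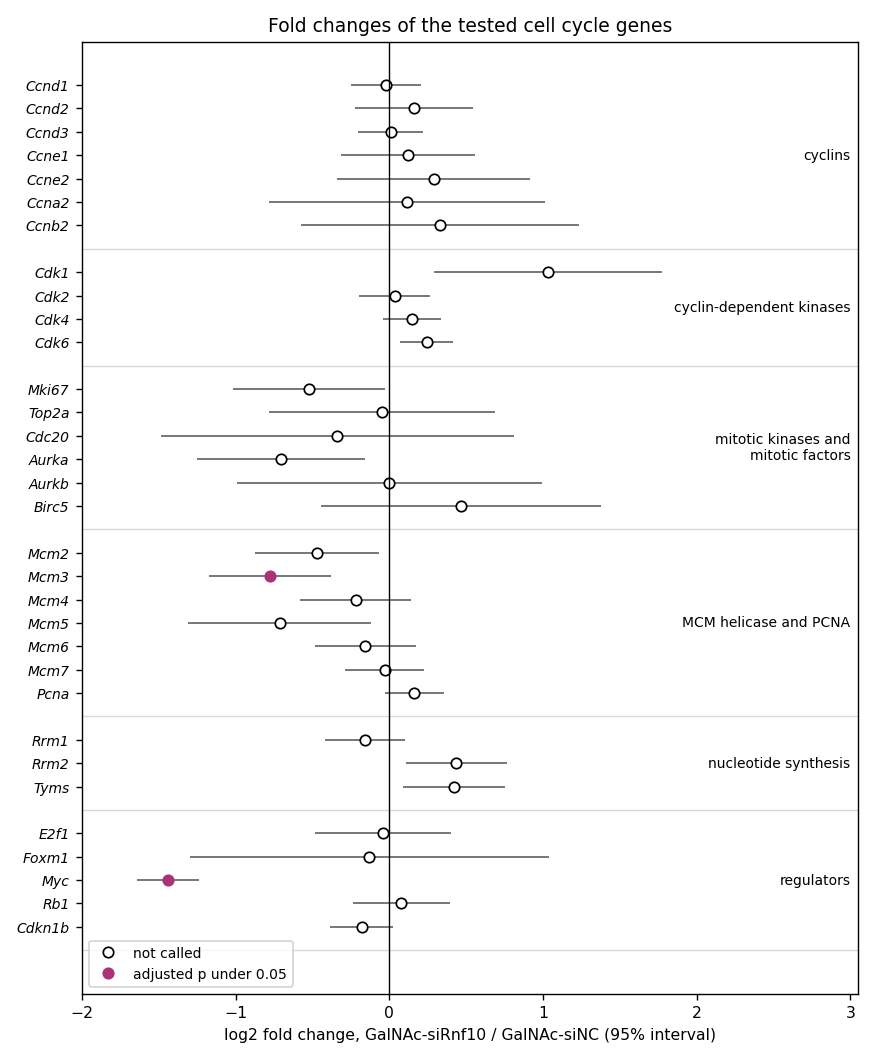
Log2 fold change of each of the 32 tested cell cycle genes, GalNAc-siRnf10 over GalNAc-siNC, with its 95% interval from the edgeR fit, grouped by role. Filled points mark the 2 genes called at an adjusted p under 0.05, Myc at -1.44 and Mcm3 at -0.78. The widest intervals belong to genes of low count such as Cdc20 and Foxm1.

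Among the regulators, Myc fell. Myc (ENSMUSG00000022346, GRCm38 chr15:61985391-61990374, plus strand) had 1108, 1337 and 1219 normalized counts in the GalNAc-siNC mice. In the GalNAc-siRnf10 mice it had 409, 458 and 484. Every treated mouse was far below every control mouse, and the spread within either group was small beside the gap. The means were 1221 ± 115 (SD, n = 3) and 450.4 ± 38.2, so the level fell by 63.1%. The log2 fold change was -1.44 with an SE of 0.096 and an interval from -1.64 to -1.23, and the adjusted p was 1.5e-08 in the edgeR quasi-likelihood test. The call held in each of the 13 alternative fits, and leaving out 1 mouse at a time gave log2 fold changes between -1.50 and -1.37. In bulk tissue, fewer cells of a type and less RNA per cell cannot be told apart, here or in the results that follow. Among the summed markers of other cell types, those of cholangiocytes and neutrophils moved the same way as Myc. The cholangiocyte sum went from between 2030 and 2072 normalized counts to between 1119 and 1150. Spp1 alone carried most of that sum, with means of 1829 and 979, and was the 1 of 5 tested cholangiocyte markers called lower. Sox9 was lower in every GalNAc-siRnf10 mouse than in every control mouse, at -0.54, and missed the threshold (edgeR adjusted p = 0.0555). Krt19, Krt7 and Epcam had log2 fold changes between -0.26 and -0.15 (edgeR adjusted p between 0.691 and 0.822). Cftr was too low to be tested, with between 4 and 10 raw counts in the GalNAc-siNC mice and 0 in each GalNAc-siRnf10 mouse. Hepatocyte markers moved the opposite way from Myc, with 5 of 8 called higher, whereas 6.71% of all tested genes were. Alb alone carried most of the hepatocyte sum, with means of 1155034 and 1799324. Apoa1, Hnf4a and Asgr1 had log2 fold changes between 0.081 and 0.113 and were not called. Kupffer cell and macrophage markers summed to between 5321 and 6124 and to between 5600 and 5908, with none of 8 called by edgeR and 2 at an unadjusted p under 0.05. Neutrophil markers summed to between 46.0 and 78.8 and to between 25.5 and 28.2, and S100a9, the single marker tested, was called lower. Sinusoidal endothelial sums rose from between 2284 and 2306 to between 2382 and 2539, with 2 of 8 called higher. Stellate cell sums rose from between 3580 and 3693 to between 4117 and 4173. There 2 of 8 were called higher, while 5 of 8 fitted fold changes were below 0. Lymphocyte and erythroid sums overlapped. The part of these cells in the change of Myc was not tested.

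The other regulators were not called. Cdkn1b, which encodes the CDK inhibitor p27, had 671, 768 and 816 normalized counts in the GalNAc-siNC mice and 625, 727 and 636 in the GalNAc-siRnf10 mice. The ranges overlapped, and the log2 fold change was -0.18 with an SE of 0.098 (edgeR adjusted p = 0.256). Without GalNAc-siNC mouse 1 it was -0.26 and passed the threshold, with an edgeR adjusted p of 0.0348. E2f1, a transcription factor that activates replication genes, had a log2 fold change of -0.042 and an interval from -0.49 to 0.40. Rb1, which encodes the retinoblastoma protein, had 0.078 with an interval from -0.24 to 0.40, and its value is uncertain because its exons overlap those of Lpar6 and Rcbtb2 on the opposite strand. Foxm1, an activator of mitotic genes, had between 4 and 19 raw counts, and its interval from -1.30 to 1.04 leaves its change undetermined at this depth.

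The MCM genes encode the 6 subunits of the ring-shaped helicase that is loaded at origins and unwinds DNA during replication. Mcm3 fell, and the fitted fold changes of the other 5 subunits were also below 0. The 6 subunits together summed to 826, 872 and 895 normalized counts in the GalNAc-siNC mice and to 774, 720 and 679 in the GalNAc-siRnf10 mice, so the sums did not overlap. With Pcna, the other gene listed with them, the sums were between 1387 and 1471 and between 1317 and 1462 and overlapped. The sum without Pcna was taken outside the listed roles. Mcm3 (ENSMUSG00000041859, chr1:20802968-20820312, minus strand) had 118, 137 and 105 normalized counts in the GalNAc-siNC mice. In the GalNAc-siRnf10 mice it had 59.7, 71.5 and 78.5. Each treated mouse lay below each control mouse, and the mean fell by 41.8%, from 120.0 ± 15.8 to 69.9 ± 9.51 (SD, n = 3). Its log2 fold change was -0.78 with an SE of 0.189 and an interval from -1.17 to -0.38, and the edgeR quasi-likelihood adjusted p was 0.0101. The call was lost in 1 of the 13 alternative fits: without GalNAc-siRnf10 mouse 1, the lowest of its group, the log2 fold change was -0.68 and the edgeR adjusted p was 0.0643.

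Mcm2 had 111, 96.6 and 107 normalized counts in the GalNAc-siNC mice and 90.1, 74.3 and 63.7 in the GalNAc-siRnf10 mice. The groups did not overlap, but the log2 fold change of -0.47 with an SE of 0.190 missed the threshold (edgeR adjusted p = 0.117). Mcm5 had a fold change nearly as large as that of Mcm3, a log2 value of -0.71 with an SE of 0.282, and was not called (edgeR adjusted p = 0.108). GalNAc-siNC mouse 1 had 41.6 normalized counts of Mcm5, below the 46.2 of GalNAc-siRnf10 mouse 1, and without that control mouse the log2 fold change was -0.92 with an edgeR adjusted p of 0.0178. The remaining subunits had smaller log2 fold changes, -0.22 for Mcm4, -0.16 for Mcm6 and -0.029 for Mcm7. The sign of Mcm7 turned when GalNAc-siNC mouse 3 or GalNAc-siRnf10 mouse 3 was left out (0.084 and 0.0036). The exons of Mcm7 overlap those of Ap4m1 and Cops6 on the opposite strand, and whether the counting used strand is not given in the sources used here, so its value is uncertain.

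Pcna, whose protein clamps the polymerase to DNA behind the helicase, had a fitted fold change above 0. It had 561, 587 and 576 normalized counts in the GalNAc-siNC mice and 688, 596 and 645 in the GalNAc-siRnf10 mice. The groups did not overlap, and the log2 fold change was 0.16 with an SE of 0.091 (edgeR adjusted p = 0.274).

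**Figure D3:**
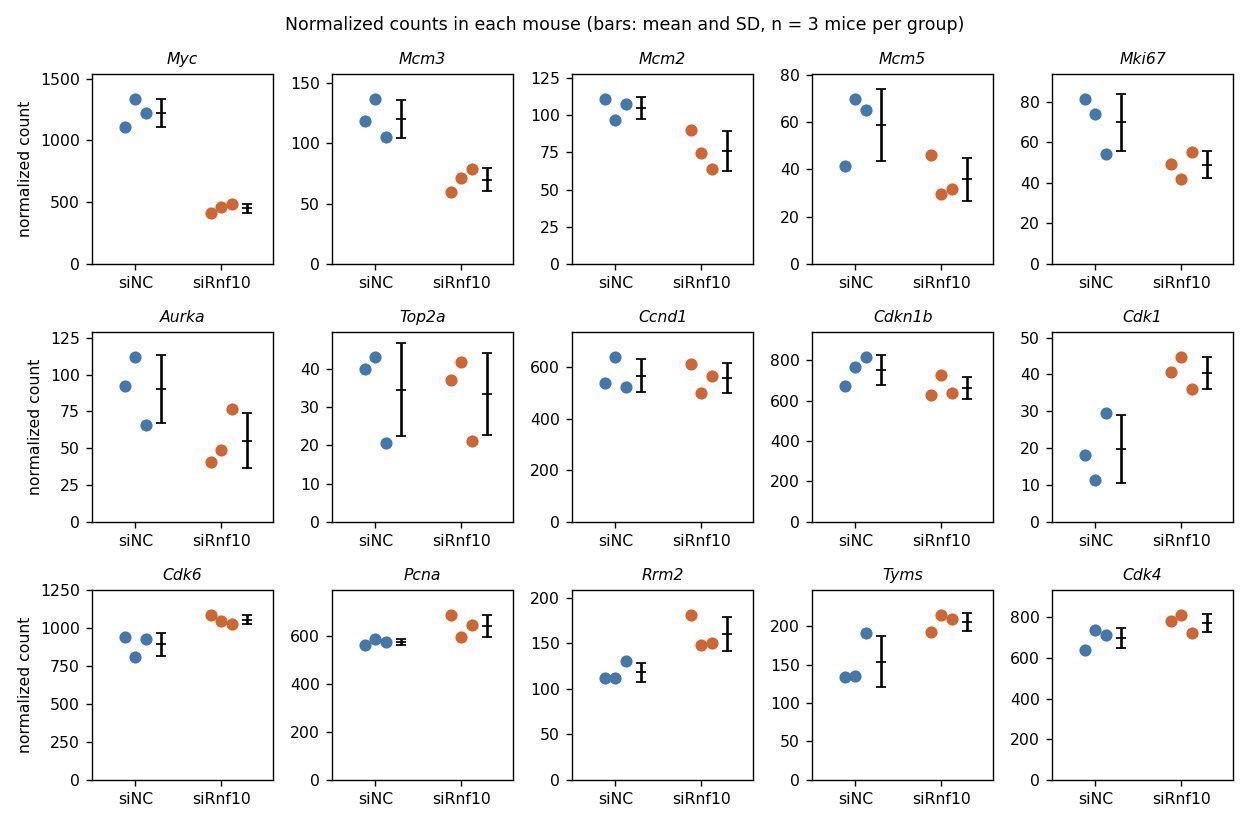
Normalized counts of 15 cell cycle genes in each mouse, blue for GalNAc-siNC and orange for GalNAc-siRnf10, with the mean and SD of each group (n = 3) in black and each axis starting at 0. The points of Myc, Mcm3 and Mcm2 separate downwards, those of Cdk1, Cdk6, Pcna, Rrm2 and Tyms separate upwards, and those of Top2a and Ccnd1 overlap.

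The start regions of these genes are shown because MCM genes are known E2F targets and mitotic genes are known for the cell cycle homology element, and because the genes below had fold changes on either side of 0, from Mcm3 at -0.78 to Cdk1 at 1.03. Myc, the member with the lowest fold change, had no entry. Sequences are from RefSeq (GRCm38.p6), from 250 bases before to 50 after the transcription start, and 26 of the 35 genes had an entry. Capitals mark every match to an E2F core (TTTGGCGC, TTTCGCGC or TTTCCCGC) or to the cell cycle homology element (TTTGAA), on either strand. The windows lie on the minus strand at chr1:20820263-20820562 for Mcm3, at chr5:138171834-138172133 for Mcm7, at chr10:69352863-69353162 for Cdk1 and at chr2:172370521-172370820 for Aurka, and on the plus strand at chr8:75109259-75109558 for Mcm5.
Mcm3: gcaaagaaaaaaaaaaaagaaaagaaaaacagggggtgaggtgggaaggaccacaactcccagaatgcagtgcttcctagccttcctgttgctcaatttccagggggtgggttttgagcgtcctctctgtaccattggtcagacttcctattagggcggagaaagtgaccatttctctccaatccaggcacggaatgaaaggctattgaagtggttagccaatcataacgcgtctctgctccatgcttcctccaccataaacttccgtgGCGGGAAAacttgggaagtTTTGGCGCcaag
Mcm5: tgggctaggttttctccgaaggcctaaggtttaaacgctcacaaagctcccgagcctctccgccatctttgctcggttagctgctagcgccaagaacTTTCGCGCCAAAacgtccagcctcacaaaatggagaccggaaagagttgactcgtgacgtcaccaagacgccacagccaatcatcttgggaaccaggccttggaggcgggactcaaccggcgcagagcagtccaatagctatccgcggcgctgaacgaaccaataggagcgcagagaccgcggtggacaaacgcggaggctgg
Mcm7: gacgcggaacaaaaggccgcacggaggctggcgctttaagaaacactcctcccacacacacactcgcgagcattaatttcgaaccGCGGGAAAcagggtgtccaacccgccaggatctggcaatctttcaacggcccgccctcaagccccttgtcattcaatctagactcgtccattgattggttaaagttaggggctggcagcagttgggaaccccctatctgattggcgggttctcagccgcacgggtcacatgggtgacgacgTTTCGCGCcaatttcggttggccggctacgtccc
Cdk1: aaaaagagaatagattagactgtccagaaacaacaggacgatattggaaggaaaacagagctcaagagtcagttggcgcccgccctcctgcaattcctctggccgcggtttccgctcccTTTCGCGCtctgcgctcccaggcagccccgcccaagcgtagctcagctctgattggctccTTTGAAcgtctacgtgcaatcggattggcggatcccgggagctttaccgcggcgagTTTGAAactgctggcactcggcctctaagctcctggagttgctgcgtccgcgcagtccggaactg
Aurka: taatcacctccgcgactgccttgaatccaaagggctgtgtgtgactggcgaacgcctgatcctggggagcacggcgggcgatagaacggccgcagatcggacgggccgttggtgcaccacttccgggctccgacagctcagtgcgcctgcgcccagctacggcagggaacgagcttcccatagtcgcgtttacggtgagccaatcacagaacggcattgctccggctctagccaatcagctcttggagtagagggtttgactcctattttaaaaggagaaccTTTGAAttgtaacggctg
In Mcm5 a sense and an antisense E2F core overlap, and in Mcm7 the second core overlaps a CCAAT box. The E2F core was found in 6 of the 26 windows (Mcm3, Mcm5, Mcm6, Mcm7, Cdk1 and Cdk2) and in 1.84% of all 32851 RefSeq windows. The fold changes of these 6 genes ran from -0.78 to 1.03 on the log2 scale, while those of all 32 tested members ran from -1.44 to 1.03. The cell cycle homology element was found in 8 of 26 windows against 17.9% of all windows, among them both Cdk1 at 1.03 and Aurka at -0.70. The CCAAT box, searched as CCAAT on both strands, was found in 19 of 26 against 37.4%. Genes with the same letters in the window had fitted fold changes on either side of 0, but of the genes with a window only Mcm3 was called. A link between the letters and the fold changes was not tested.

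Of the 3 genes of nucleotide synthesis, Rrm2 and Tyms were higher in every GalNAc-siRnf10 mouse than in every control mouse, and neither was called. Rrm2 encodes the small subunit of ribonucleotide reductase, which makes deoxynucleotides. It had 112, 112 and 130.0 normalized counts in the GalNAc-siNC mice and 181, 148 and 151 in the GalNAc-siRnf10 mice, a log2 fold change of 0.44 with an SE of 0.156 (edgeR adjusted p = 0.0753). Tyms encodes thymidylate synthase. It had 134, 136 and 192 normalized counts in the GalNAc-siNC mice, and in the GalNAc-siRnf10 mice 193, 215 and 210.1. The highest control mouse all but met the lowest treated mouse, and the log2 fold change was 0.42 with an SE of 0.156 (edgeR adjusted p = 0.0858). Without GalNAc-siNC mouse 3, the highest of the controls, it was 0.61 with an edgeR adjusted p of 0.0181. Rrm1, the large subunit of the same reductase, had a log2 fold change of -0.16 and an interval from -0.42 to 0.10, so the fitted values of the 2 subunits had opposite signs.

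No cyclin was called by edgeR, and no cyclin had an unadjusted p under 0.05. Ccnd1, the D-type cyclin known to rise in regenerating liver, had 539, 641 and 524 normalized counts in the GalNAc-siNC mice and 613, 499 and 567 in the GalNAc-siRnf10 mice. The ranges overlapped almost completely, and the log2 fold change was -0.022 with an SE of 0.108 and an interval from -0.25 to 0.21 (edgeR adjusted p = 0.922). Ccnd3, another D-type cyclin, had a log2 fold change of 0.0080 and an interval from -0.20 to 0.22. Intervals were wider for the cyclins that act later: from -0.34 to 0.92 for Ccne2 of the entry into replication, from -0.78 to 1.01 for Ccna2 of replication and from -0.57 to 1.23 for Ccnb2 of mitosis. Ccnd2 at 0.16 and Ccne1 at 0.12 completed the tested cyclins. The exons of Ccnd1, Ccnd3, Ccne2 and Ccna2 each overlap a tested gene on the opposite strand that has more counts than the difference between the groups, which leaves these values uncertain.

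The fitted fold changes of all 4 CDKs were above 0, except that Cdk2 lay at -0.0078 without GalNAc-siNC mouse 1. None was called by edgeR, although 2 had an unadjusted p under 0.05. Cdk1, the kinase of mitosis, had 18.2, 11.3 and 29.5 normalized counts in the GalNAc-siNC mice. In the GalNAc-siRnf10 mice it had 40.6, 44.8 and 36.1. The groups did not overlap, and the mean went from 19.7 ± 9.21 to 40.5 ± 4.35 (SD, n = 3). The log2 fold change of 1.03 was the largest above 0 among the 32 genes, with an SE of 0.351 and an interval from 0.29 to 1.78, and it missed the threshold (edgeR adjusted p = 0.0604). It passed in 3 alternatives, without a filter on low counts (adjusted p = 0.0432), with at least 10 counts in every mouse (0.0421) and without GalNAc-siNC mouse 3 (0.0251), each by edgeR. Ccnb2, which encodes a cyclin partner of CDK1, had a log2 fold change of 0.33 (edgeR adjusted p = 0.676) with an interval from -0.57 to 1.23 that contains the value of Cdk1, and the difference between the genes was not tested.

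Cdk6, which acts with the D-type cyclins, had 939, 806 and 928 normalized counts in the GalNAc-siNC mice and 1087, 1049 and 1028 in the GalNAc-siRnf10 mice. The groups did not overlap, and the log2 fold change was 0.24 with an SE of 0.083 (edgeR adjusted p = 0.0619). Without GalNAc-siNC mouse 1 it was 0.28 with an edgeR adjusted p of 0.0094, and with limma voom and sample quality weights the adjusted p was 0.0393. Cdk4, the other partner of the D-type cyclins, had a log2 fold change of 0.15 (edgeR adjusted p = 0.304), and Cdk2, the partner of cyclins E and A, had 0.036. Both overlap a gene on the opposite strand, Tspan31 and Pmel respectively, and are uncertain for that reason.

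None of the 6 tested mitotic kinases and factors was called by edgeR, and 2 had an unadjusted p under 0.05, Aurka and Mki67. All 6 had a mean normalized count under 100, where 4.91% of all tested genes were called and 13.65% had an unadjusted p under 0.05. Mki67, which encodes the proliferation marker Ki-67, had 81.5, 74.0 and 54.2 normalized counts in the GalNAc-siNC mice and 49.6, 41.9 and 55.2 in the GalNAc-siRnf10 mice. The groups overlapped in 1 mouse of each, and the log2 fold change was -0.52 with an SE of 0.235 (edgeR adjusted p = 0.164). Top2a, a topoisomerase that untangles chromosomes, had 39.9, 43.2 and 20.7 against 37.2, 41.9 and 21.2, nearly the same values in both groups. Its log2 fold change was -0.046 with an SE of 0.348 (edgeR adjusted p = 0.951), and its interval from -0.78 to 0.69 does not exclude a moderate change. Aurka, a kinase of the spindle poles, had a log2 fold change of -0.70 with an SE of 0.258 (edgeR adjusted p = 0.0834). It passed the threshold without a filter on low counts (edgeR adjusted p = 0.0274), without GalNAc-siNC mouse 3 (0.0451) and without GalNAc-siRnf10 mouse 3 (0.0371). Aurkb, a kinase of chromosome segregation, had -0.00044, Birc5, which encodes its partner survivin, had 0.47 and Cdc20, an activator of the anaphase-promoting complex, had -0.34. Their intervals ran from -0.99 to 0.99, from -0.44 to 1.38 and from -1.49 to 0.81. Cdc20 also overlaps Elovl1 on the opposite strand, which leaves its value uncertain.

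Summed over all 35 genes, normalized counts were between 7652 and 8144 in the GalNAc-siNC mice and between 7204 and 7434 in the GalNAc-siRnf10 mice. Without Myc, the sums of the other 34 genes were between 6544 and 6807 and between 6720 and 7025, and the groups overlapped. The mitotic kinases and factors summed to between 198 and 302 and to between 168 and 221, also with overlap. The 4 CDKs summed to between 1876 and 1989 and to between 2116 and 2229, without overlap.

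Beyond these members, 169 further genes of the same pathways were read from 7 lists, and 150 of them were tested. Of these, 11 were called (7.33%, background 14.0%), 7 higher and 4 lower, with a median log2 fold change of -0.00051. The 27 tested mitotic genes had no call in the edgeR test, and 2 of them (7.41%) had an unadjusted p under 0.05. Their median mean normalized count was only 25.9. Among all tested genes with a mean under 100, 4.91% were called and 13.65% had an unadjusted p under 0.05. Of 37 tested replication genes, 4 were called (10.8%). Cdc45, a partner of the MCM helicase at the fork, was higher in the GalNAc-siRnf10 mice, with means of 11.6 ± 5.08 and 33.3 ± 6.88 (SD, n = 3) and a log2 fold change of 1.50 (edgeR adjusted p = 0.0178). Its exons share bases with Ufd1 on the opposite strand, and the call was kept in 3 of 6 fits that left out 1 mouse. Cdt1, which loads MCM onto DNA, was lower at -0.60, and Gmnn, which encodes the Cdt1 inhibitor geminin, was higher at 0.51. Dnmt1, which copies DNA methylation after replication, was lower at -0.41. The calls of Cdt1, Gmnn and Dnmt1 had edgeR adjusted p-values between 0.027 and 0.0466, and each was kept in 1 of 6 fits that left out 1 mouse.

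Of the 23 tested genes of nucleotide synthesis, 3 were called, all higher, and this share of 13.0% was close to the background of 14.0%. Tk1, thymidine kinase of the salvage route, went from 522 ± 66.3 to 785 ± 23.4 normalized counts (SD, n = 3), a log2 fold change of 0.59 with an SE of 0.0998 (edgeR adjusted p = 0.000575). Ppat, the first enzyme of purine synthesis, had 0.52, and Paics, a later enzyme of that route, had 0.28. These 3 calls held in all 13 alternative fits. Ppat and Paics are neighbours with overlapping exons on opposite strands, and Tk1 overlaps Afmid, so how reads were divided between them is uncertain.

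In each of the remaining 4 lists a single gene was called. In the order below these were 1 of 11, 1 of 18, 1 of 25 and 1 of 9 tested genes. The shares of 9.09%, 5.56%, 4% and 11.1% lay below the background of 14.0%. Among CDK inhibitors and checkpoint kinases, Cdkn1c, which encodes the CDK inhibitor p57, was higher at 1.26, from 11.2 ± 4.02 to 26.9 ± 3.96 normalized counts (SD, n = 3), with an edgeR adjusted p of 0.0455 that was kept in 1 of 6 fits without a mouse. Cdkn1a, which encodes the inhibitor p21, had 0.35 (edgeR adjusted p = 0.503), and Wee1, a kinase that holds back CDK1, had 0.18 (edgeR adjusted p = 0.306). Among the RB, E2F and DREAM genes, E2f8, a repressing member of the E2F family, was lower at -0.95 (edgeR adjusted p = 0.00041), from 436 ± 91.4 to 226 ± 25.6 normalized counts. This call held in all 13 alternative fits, but 610 exonic bases of E2f8 are shared with Gm2788 on the opposite strand, which itself had a mean of 1281 and 794 normalized counts in the groups. Among cyclins and CDKs outside the members, Ccnl2, a cyclin linked to splicing, was higher at 0.21, with an edgeR adjusted p of 0.0355 that was kept in 1 of 6 fits without a mouse. In the MYC network, Mnt, which encodes a repressing partner of MAX, was lower at -0.52 (edgeR adjusted p = 0.0118), and its call was kept in 4 of 6 fits without a mouse.

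**Figure D4:**
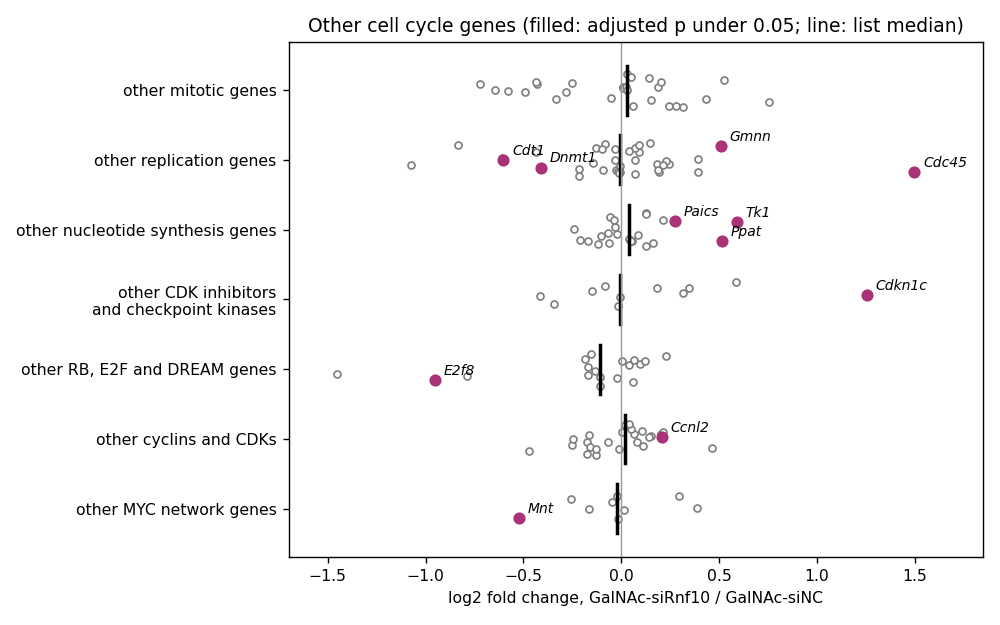
Log2 fold change of 150 tested genes in 7 lists of cell cycle genes outside the members, with 1 point per gene, spread vertically within its list for legibility. Filled and named points are the 11 called genes, and black lines are the list medians, which lie between -0.11 and 0.039.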

How the data were processed

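Poly(A) RNA of whole liver was sequenced from 3 mice per group (stranded libraries, paired reads). The authors used HISAT2 and GRCm38 for mapping, and the values they deposited are unnormalized read counts of each gene, beside a gene model length in bases. The counting tool, annotation release and strand setting are not given in the sources used here. Gene coordinates are those deposited with the counts. GENCODE M21 had the same start and end for 54907 genes, another start or end for 320 and no entry for 260. It supplied symbols, and 346 identifiers had no symbol.

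Differences between the groups were fitted by edgeR 4.0.16 under R 4.3.3, with treatment as sole covariate, genes kept by filterByExpr, TMM scaling and a robust quasi-likelihood F-test over 14046 genes, with Benjamini-Hochberg adjustment and a threshold of 0.05. The biological coefficient of variation was 9.28%. Normalized counts are counts scaled by TMM library size. Groups came from the labels, and each mouse was a biological replicate. The labels do not say whether mice with the same number shared a litter, day or cage. Exact permutation tests were run on single genes. Alternatives were RLE and upper quartile scaling, DESeq2 1.42.0, no filter, a minimum of 10 counts per mouse, a block for replicate number, limma 3.58.1 voom with quality weights, an adjusted p under 0.01 and leaving out each mouse.

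The members and the lists were chosen with earlier results of these data known. Every member was given in each mouse where it was called, where its groups did not overlap, or where it was Mki67, Top2a, Cdk1, Ccnd1, Cdkn1b or Myc. Of the other lists, called genes plus Cdkn1a and Wee1 were named. Aurka and Mcm5 were described further after their values were seen. Promoter windows are RefSeq entries, and 9 members without one are Foxm1, Ccnd1, Aurkb, Rb1, Myc, Ccne2, Mcm4, Ccna2 and Ccnd2.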

Additional observations from a re-analysis of the deposited data

How the results depend on the processing

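The number of cell cycle members called was 2 and lay between 1 and 5 when each mouse was left out in turn, was 4 without a filter on low counts and was 1 at an adjusted p under 0.01. Of all genes, between 1053 and 2864 were called when a mouse was left out and 1042 at an adjusted p under 0.01, against 1965. Of the pathway genes outside the members, between 4 and 9 were called when a mouse was left out and 4 at an adjusted p under 0.01, against 11. Without GalNAc-siNC mouse 1 or mouse 3, 5 members were called in each case, and without GalNAc-siRnf10 mouse 1 Myc alone was called. Mice with the same number are different animals, and their deviations were not correlated (between -0.034 and 0.027). With the replicate block, 1816 genes, 2 members and 8 pathway genes were called. Over the named genes and the alternatives, 478 log2 fold changes kept their direction and their side of the threshold, 41 lost a call, 11 gained one and 23 turned their sign, each of a gene that was not called in either fit. Of these 23, Ccnd3 had -0.0020 with upper quartile scaling and Top2a 0.15 with limma voom. The others came with a mouse left out, where log2 fold changes ran from -0.091 to 0.071 for Ccnd1, from -0.097 to 0.058 for Ccnd3, from -0.20 to 0.39 for Ccna2, from -0.0078 to 0.064 for Cdk2, from -0.31 to 0.19 for Top2a, from -0.82 to 0.11 for Cdc20, from -0.11 to 0.12 for Aurkb, from -0.11 to 0.084 for Mcm7, from -0.14 to 0.17 for E2f1, from -0.97 to 0.22 for Foxm1 and from -0.066 to 0.17 for Rb1. The cause of these changes was not tested, except that leaving out a mouse leaves fewer samples. Depth limits the mitotic genes most: the 6 tested mitotic kinases and factors had a median SE of 0.389 on the log2 scale, the highest of the roles. Of all 35 members, 20 had a mean normalized count under 100. The 17 of these 20 that were tested had a median SE of 0.297, against 0.109 for the other 15.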

Other observations

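Known targets of MYC were read beside the fall of Myc itself, from a list of 26 genes written after the values of Myc had been seen and before those of the list were looked at. All 26 were tested and 7 were called by edgeR, 6 higher and 1 lower, with a median log2 fold change of 0.16. That is 26.9% of the list, whereas 14.0% of all tested genes were called. Among tested genes averaging 100 normalized counts or more, the called share was 18.0%. On the list, Hk2 lay below that level, with a mean of 26.5. The 6 that rose all act in ribosome biogenesis, a process MYC is known to promote, and they stood among 17 such genes on the list (35.3% higher, background 6.71%). At a mean normalized count of at least 100, where all 17 lay, 827 of 9730 tested genes were called higher. None of the 5 polyamine and metabolic enzymes and none of the 4 genes of translation and chaperones was called higher. The ribosome genes were singled out because the calls fell there. Nop58, a core protein of box C/D small nucleolar particles, had 518, 476 and 491 normalized counts in the GalNAc-siNC mice and 794, 713 and 646 in the GalNAc-siRnf10 mice. Its log2 fold change was 0.53 with an SE of 0.0978 (edgeR adjusted p = 0.00116), and the groups did not overlap. Nolc1 at 0.49, Wdr43 at 0.45, Nop56 at 0.45, Gnl3 at 0.44 and Npm1 at 0.27 were the others. Ncl, which encodes nucleolin, was not called at 0.17 (edgeR adjusted p = 0.0642). The single gene that fell was Ldha, which encodes lactate dehydrogenase A, from 28918 ± 1525 to 20299 ± 98.8 normalized counts (SD, n = 3), a log2 fold change of -0.51 (edgeR adjusted p = 3.7e-06). Odc1, the polyamine enzyme often used to read MYC activity, had 0.074 (edgeR adjusted p = 0.516). The level of Myc protein is not measured by these counts.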
